A study of Mus musculus with 14 samples.

Results

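Citrate synthase, isocitrate dehydrogenase, oxoglutarate dehydrogenase, succinyl-CoA synthetase, fumarase and malate dehydrogenase carry out most steps of the tricarboxylic acid cycle. Their mRNAs were followed here through 9 genes, Cs, Idh3a, Idh3b, Idh3g, Ogdh, Suclg1, Suclg2, Fh1 and Mdh2. Probe sets were taken where the platform's gene symbol was 1 of these 9, which gave 20 of 45101 probe sets. Each gene was read from its probe set with the highest mean over all arrays, and all 9 genes were among the 12945 genes tested. Subcutaneous white fat of male C57BL/6 mice, aged 12 weeks, was profiled on 14 microarrays. In the 7 exercised samples the mice had lived in wheel cages for 11 days, and the 7 sedentary samples are labelled with the same 11 days. No label names a transgene or a drug, or says whether arrays came from separate mice, so the spread behind the p-values may be technical only. In whole tissue, fewer cells of a type and less RNA per cell cannot be told apart.

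The cycle runs in the mitochondrial matrix. It joins acetyl-CoA to oxaloacetate, oxidises the product to carbon dioxide, and hands the electrons to NAD and FAD for the respiratory chain. White adipocytes use it for energy and export its citrate for fatty acid synthesis, and brown and beige adipocytes, which are rich in mitochondria, use it to feed heat production.

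The deposited values are linear signals scaled so that the trimmed mean was 1500 on every array, with array medians between 531.3 and 617.4. The tissue carried its label's markers: Adipoq, the adipocyte hormone adiponectin, had a signal of 57627 in sedentary and 59745 in exercised samples. Sedentary array 5 stood apart, with the lowest mean of the 9 adipocyte markers tested (13.57 on the log2 scale, against 14.29 to 14.90 on the other sedentary arrays) and the lowest signal of all 9 cycle genes in its group. Differences without it are given below for each gene and for the subunit pairs that were called.

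All 9 cycle enzymes rose in exercised tissue. By limma, 9 of 9 were higher at an adjusted p under 0.05 and 0 were lower, where 5.53% of all genes tested were called, 4% higher and 1.53% lower. Differences ran from 0.45 for Mdh2 to 0.94 for Suclg1 on the log2 scale (1.36-fold to 1.92-fold), with a median of 0.64, beside a median of -0.03 over all genes tested. In 6 of the 9 genes the exercised and sedentary arrays did not overlap, which was seen in 1.95% of all genes in that direction and in 0.734% with the exercised arrays lower. Ranked by p among 12945 genes, the members lay between positions 87 (Idh3b) and 361 (Mdh2). Over all genes 518 were called higher and 198 lower, a share of 72.3% higher that became 86.4% when arrays were centred on their medians. Without sedentary array 5 all 9 rose, with differences of 0.49 for Cs, 0.65 for Idh3a, 0.63 for Idh3b, 0.53 for Idh3g, 0.76 for Ogdh, 0.82 for Suclg1, 0.51 for Suclg2, 0.57 for Fh1 and 0.38 for Mdh2. Without sedentary arrays 5 and 7, the latter with the lowest brown fat and lymphocyte markers of its group, all 9 still rose, with differences from 0.41 to 0.78. With the mean of brown and beige fat markers as a covariate, 0 of the 9 passed, as described with those markers. With the replicate number as a block 2 of the 9 passed, and the values are given at the end.

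**Figure D1:**
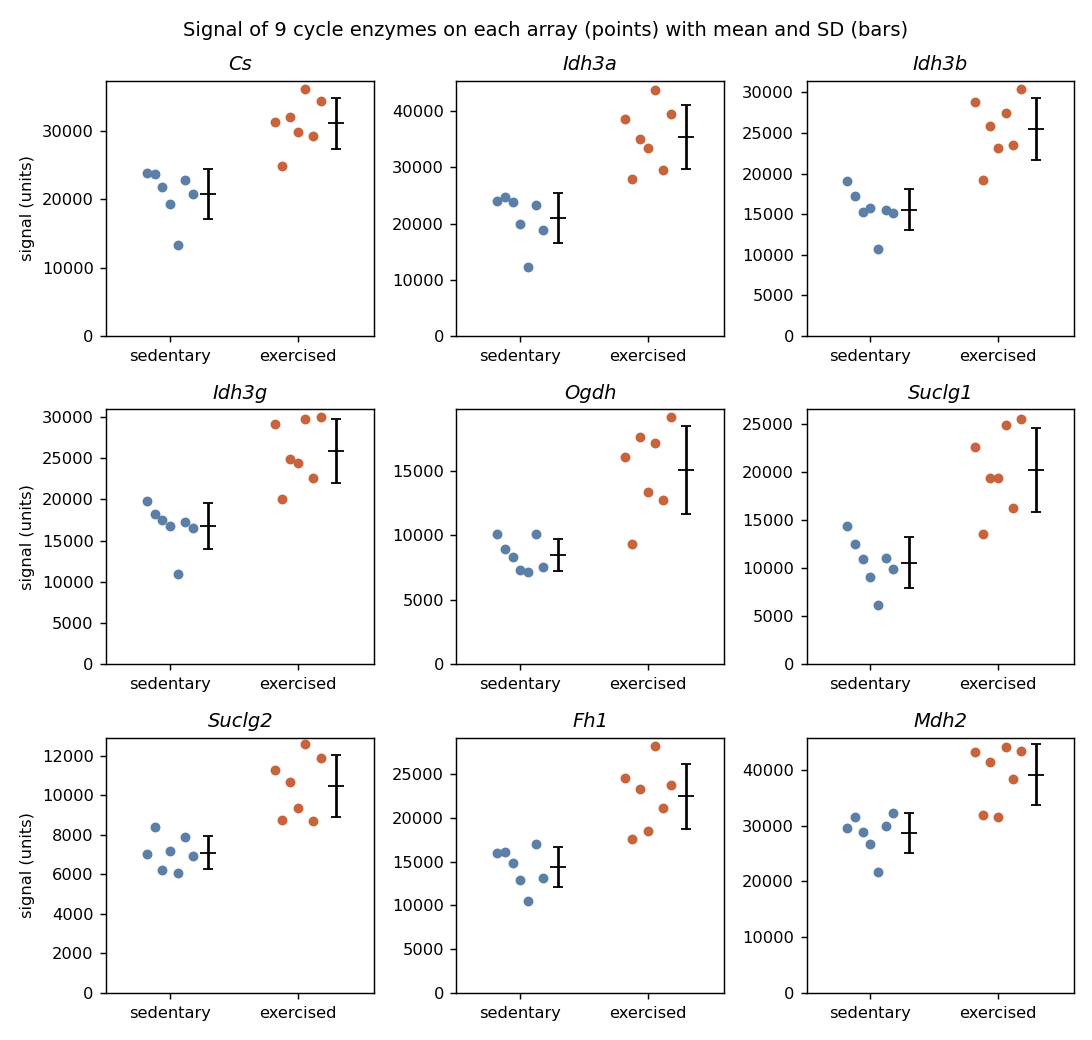
Linear signal (units, vertical axis from 0) of each of the 9 genes on the 7 sedentary and 7 exercised arrays; each point is an array, and the bar beside each group gives the mean and SD. Groups are separate for Cs, Idh3a, Idh3b, Idh3g, Suclg2 and Fh1 and overlap for Ogdh, Suclg1 and Mdh2.

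Because the members rose together, the bases before their starts were examined. RefSeq promoter windows (GRCm38.p6) were matched for 8 of the 9 genes, all but Idh3a, in 13 windows, and the 250 bases before each start were searched on both strands. Shown are the gene with the largest difference, the gene with the smallest, and the only 1 with a match. Capitals mark the match, and the other bases are in lower case.

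Suclg1 promoter: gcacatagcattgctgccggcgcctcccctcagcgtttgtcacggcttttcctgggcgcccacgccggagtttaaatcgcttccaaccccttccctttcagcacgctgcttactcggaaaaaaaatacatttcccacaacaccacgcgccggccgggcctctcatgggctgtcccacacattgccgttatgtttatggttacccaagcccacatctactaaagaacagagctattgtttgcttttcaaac

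Mdh2 promoter: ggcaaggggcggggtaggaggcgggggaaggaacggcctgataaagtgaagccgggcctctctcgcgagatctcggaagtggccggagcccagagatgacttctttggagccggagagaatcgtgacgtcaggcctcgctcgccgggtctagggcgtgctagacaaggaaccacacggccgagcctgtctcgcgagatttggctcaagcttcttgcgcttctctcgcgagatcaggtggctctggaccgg

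Idh3g promoter: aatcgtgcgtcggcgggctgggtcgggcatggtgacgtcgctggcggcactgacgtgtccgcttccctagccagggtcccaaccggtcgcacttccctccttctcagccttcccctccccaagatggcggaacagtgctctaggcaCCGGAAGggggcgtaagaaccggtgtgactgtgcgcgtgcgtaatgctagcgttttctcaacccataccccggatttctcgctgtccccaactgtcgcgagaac

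The Suclg1 stretch is chr6:73248255-73248504 on the plus strand, that of Mdh2 chr5:135778399-135778648 on the plus strand, and that of Idh3g chrX:73786898-73787147 on the minus strand; all are written 5′ to 3′ towards the gene. The capitals in Idh3g are CCGGAAG, a motif of ETS family factors, 98 to 104 bases before the start. It was found in 1 of the 13 windows of the 8 genes, and in 6.91% of all 32851 windows of that length. Several of the 13 are windows of Ogdh that overlap each other, so the 13 are not separate counts. TNAAGGTCA, bound by estrogen-related receptors, was found in 0 of the 13 and in 1.14% of all windows, and the palindromic NRF1 motif in 0 of the 13 and in 3.74%. The G and C content of the 3 stretches was 53.2% for Suclg1, 63.2% for Mdh2 and 62.8% for Idh3g, beside a median of 52.4% over all windows.

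The cycle begins with Cs, which condenses acetyl-CoA with oxaloacetate to citrate and is a customary marker of mitochondrial content. Its signal ran from 13331 (median 21794) to 23951 on sedentary arrays. On exercised arrays it ran from 24854 (median 31329) to 36216. Every exercised array was above every sedentary array, and sedentary array 5 lay well below the other 6, the next of which read 19272. Cs rose by 0.59 (SE 0.12, limma adjusted p = 0.0111), a fold of 1.51. Its other probe sets rose too, by 0.74 and 0.52.

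Idh3a, Idh3b and Idh3g encode the NAD-dependent isocitrate dehydrogenase of the matrix, with Idh3a as its catalytic alpha subunit and Idh3b and Idh3g as the beta and gamma subunits. Idh3a read 12278 to 24658 (median 23306) in sedentary and 27981 to 43817 (median 35016) in exercised tissue. The gap between the groups was 3324 signal units. Idh3a rose by 0.77 (SE 0.15, limma adjusted p = 0.00801). Idh3b read 10762 to 19139 (median 15513) in sedentary and 19159 to 30412 (median 25837) in exercised tissue, so that exercised array 2 and sedentary array 1 lay 20.3 units apart. Idh3b rose by 0.71 (SE 0.12, limma adjusted p = 0.00433). Idh3g read 10898 to 19786 (median 17304) in sedentary and 20071 to 29914 (median 24833) in exercised tissue, again without overlap. Idh3g rose by 0.63 (SE 0.13, limma adjusted p = 0.00986). In all 3 genes the lowest exercised array was array 2 and the lowest sedentary array was array 5.

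Idh2, the NADP-dependent isocitrate dehydrogenase of the matrix, differed by 0.14 (SE 0.13, limma adjusted p = 0.557, 95% interval -0.14 to 0.41). Its signal ran from 3975 to 6907 in sedentary and from 4739 to 7645 in exercised tissue, and the groups overlapped broadly. Idh2 was the only gene of the 17 cycle enzymes measured that did not pass the test. The whole interval of Idh2 lay below those of Idh3a (0.46 to 1.09) and Idh3b (0.45 to 0.97). It overlapped that of Idh3g (0.36 to 0.90). The difference between Idh2 and those genes was not itself tested.

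Ogdh encodes the first component of the oxoglutarate dehydrogenase complex, which oxidises oxoglutarate to succinyl-CoA. Its signal ran from 7131 to 10085 (median 8332) in sedentary and from 9320 to 19161 (median 16052) in exercised tissue. Exercised array 2 lay within the sedentary range, and the other 6 exercised arrays were above all sedentary arrays. Ogdh rose by 0.80 (SE 0.15, limma adjusted p = 0.00602). Another probe set of Ogdh, with a mean signal of 579.4, differed by 0.33 (SE 0.24, adjusted p = 0.477 by limma over all probe sets), and with the mean of both the difference was 0.57 (adjusted p = 0.0635). The other components of the complex rose as well, Dlst, the succinyltransferase, by 0.72 (SE 0.10, limma adjusted p = 0.002) and Dld, the dehydrogenase shared with the pyruvate dehydrogenase complex, by 0.77 (SE 0.14, limma adjusted p = 0.00651). Dimmer probe sets of Dlst, with mean signals of 1692 and 1140, differed by 0.32 and 0.50 (adjusted p = 0.0871 for each by limma over all probe sets). Another, under the filter on low signal, differed by -0.37.

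Succinyl-CoA synthetase turns succinyl-CoA into succinate and makes a nucleoside triphosphate. Suclg1 is its alpha subunit, which pairs with Suclg2 in the GTP-forming enzyme or with Sucla2 in the ATP-forming enzyme. Suclg1 read 6166 to 14444 (median 10976) in sedentary and 13625 to 25586 (median 19421) in exercised tissue. Sedentary array 1 and exercised array 2 crossed, and the other arrays were separate. Suclg1 rose by 0.94 (SE 0.18, limma adjusted p = 0.00691), the largest difference of the 9. Suclg2 read 6057 to 8397 (median 7029) in sedentary and 8688 to 12585 (median 10702) in exercised tissue, without overlap. It rose by 0.55 (SE 0.10, limma adjusted p = 0.00639), and its dimmer probe set differed by 0.42 (adjusted p = 0.0658 by limma over all probe sets). Sucla2 rose by 0.88 (SE 0.13, limma adjusted p = 0.00248), from a signal of 16662 ± 2651 (SD, n = 7) to 30848 ± 5742 (n = 7).

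Succinate dehydrogenase, which is also complex II of the respiratory chain, follows in the cycle. Its 4 subunit genes all rose, Sdha by 0.49 (SE 0.10, limma adjusted p = 0.0101), Sdhb by 0.60 (SE 0.11, limma adjusted p = 0.00526), Sdhc by 0.52 (SE 0.12, limma adjusted p = 0.0185) and Sdhd by 0.70 (SE 0.15, limma adjusted p = 0.0141). Another Sdhc probe set, with a mean signal of 6655, differed by 0.11 (adjusted p = 0.747 by limma over all probe sets). In that limma fit, others of Sdhd and Sdha rose by 0.44 (adjusted p = 0.0306) and 0.71 (adjusted p = 0.00193). A dimmer one of Sdha (mean signal 863.4) differed by 0.05 (adjusted p = 0.798, same limma fit). Another, under the filter on low signal, differed by -0.24. Of the 8 other genes of the cycle that were measured, 7 rose by the probe sets used, with Idh2 the exception. When probe sets were averaged by gene, 6 of the 8 rose by limma.

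Fh1 encodes fumarase, which hydrates fumarate to malate. Its signal ran from 10532 to 17008 (median 14816) in sedentary and from 17590 to 28258 (median 23266) in exercised tissue, and the groups did not overlap. Fh1 rose by 0.64 (SE 0.12, limma adjusted p = 0.00726).

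Mdh2, the malate dehydrogenase that regenerates oxaloacetate in the matrix, closed the cycle with the smallest difference of the 9. Its signal ran from 21669 to 32308 (median 29611) in sedentary and from 31500 to 44187 (median 41520) in exercised tissue. Exercised arrays 2 and 4 lay within the sedentary range, and the other 5 were above all sedentary arrays. Mdh2 rose by 0.45 (SE 0.10, limma adjusted p = 0.0223), and a second probe set rose by 0.50. Its call was lost without exercised array 1, 3, 5 or 7, with differences of 0.42, 0.43, 0.42 and 0.42 and adjusted p-values from 0.0509 to 0.0532.

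**Figure D2:**
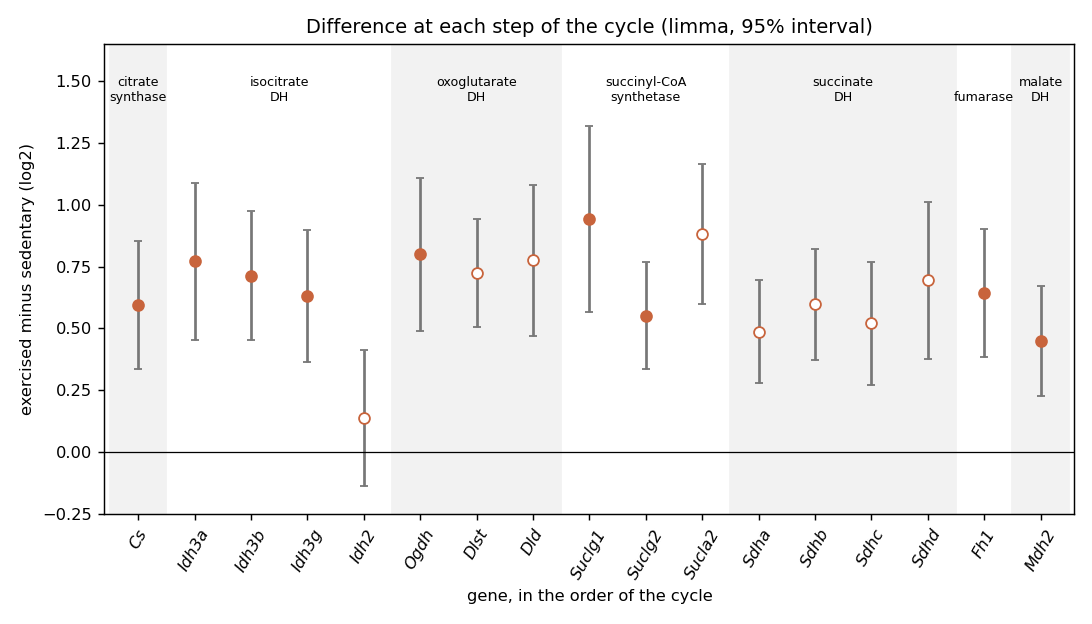
Difference between exercised and sedentary tissue (log2, vertical axis) for 17 genes in the order of the cycle, by limma with 95% intervals; filled points are the 9 enzymes described here and open points the other 8 measured genes. Every interval but that of Idh2 lies above 0.

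The order of the 9 differences, from Suclg1 through Ogdh, Idh3a, Idh3b, Fh1, Idh3g, Cs and Suclg2 to Mdh2, was close-spaced. Neighbours were between 0.01 and 0.14 apart, less than the SD of their within-array difference in either group. That SD is the spread of single arrays, not of group means, so it does not settle whether neighbours differ. Apart from Idh3a and Idh3b, compared below, neighbours were not tested against each other.

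The probe sets read for subunits of 1 enzyme did not all differ by the same amount. For 5 pairs of subunits the within-array log2 difference was compared between groups by an exact two-sided permutation test over 3432 assignments of arrays, with Benjamini-Hochberg adjustment over the 5 pairs. Suclg1 minus Suclg2 was 0.54 ± 0.32 on sedentary arrays and 0.93 ± 0.16 on exercised arrays (SD, n = 7 each), a shift of 0.39 (interval 0.10 to 0.68, exact permutation p = 0.0128, adjusted p = 0.0321). Suclg2 minus Sucla2 was -1.22 ± 0.21 in sedentary and -1.55 ± 0.15 in exercised tissue (n = 7 each), a shift of -0.33 (interval -0.54 to -0.12, exact permutation p = 0.00816, adjusted p = 0.0321). By these tests the GTP-type beta subunit rose by less than both the alpha subunit and the ATP-type beta subunit, although the groups overlapped in both pairs. Without sedentary array 5 the shifts were 0.30 and -0.29, each with an adjusted p of 0.0427 by the exact test. Without sedentary arrays 5 and 7 the shifts were 0.28 and -0.25, each with an adjusted p of 0.0842 by the same exact test. Both calls were also lost without sedentary array 4, sedentary array 7 or exercised array 3, with adjusted p-values from 0.051 to 0.0583.

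Among the isocitrate dehydrogenase subunits the shifts were smaller. Idh3a minus Idh3g shifted by 0.14 (interval 0.04 to 0.25, exact permutation p = 0.0239, adjusted p = 0.0398), and its sedentary and exercised means were 0.31 ± 0.12 and 0.45 ± 0.06 (n = 7 each). This call was lost without sedentary array 4, 5 or 7 or exercised array 3 or 5. The shift without sedentary array 5 was 0.12 (exact permutation adjusted p = 0.0524), and without sedentary arrays 5 and 7 the shift was 0.09 (exact permutation adjusted p = 0.109). Idh3b minus Idh3g shifted by 0.08 (interval 0.01 to 0.16, exact permutation p = 0.042, adjusted p = 0.0524), which missed the threshold. It passed with quantile normalisation, without sedentary array 1 or 5, and without exercised array 2, 4 or 5, with exact permutation adjusted p-values from 0.0398 to 0.0495. Idh3a minus Idh3b shifted by 0.06 (interval -0.11 to 0.22, exact permutation p = 0.464, adjusted p = 0.464). Other probe sets of Idh3a differed between groups by 0.42, 0.84 and 1.03, on both sides of the 0.63 of Idh3g.

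**Figure D3:**
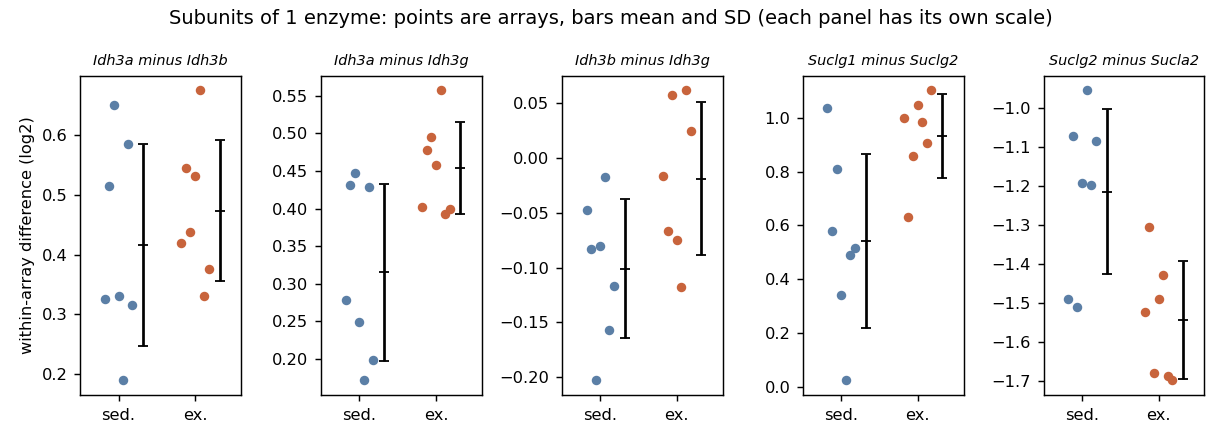
Within-array log2 difference between the probe sets of 2 subunits (vertical axis, each panel with its own scale) on 7 sedentary and 7 exercised arrays, with mean and SD. The exercised mean is higher for Suclg1 minus Suclg2 (0.93 against 0.54) and lower for Suclg2 minus Sucla2 (-1.55 against -1.22), and single arrays of the 2 groups overlap in both pairs.

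The other probe sets served as a check. By limma over all 27027 probe sets past the filter, 1035 were called, 750 higher and 285 lower. The median difference in that fit was -0.04. Of 11 further probe sets, belonging to 7 of the 9 genes, all 11 had positive differences and 7 passed the threshold by limma over all probe sets, with values from 0.33 to 1.03. The other 4 belonged to Idh3a (0.42, adjusted p = 0.12), Idh3b (0.52, adjusted p = 0.0944), Ogdh and Suclg2. The probe sets used for Idh3b and Suclg2 are of a type that can match transcripts of more than a single gene.

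**Figure D4:**
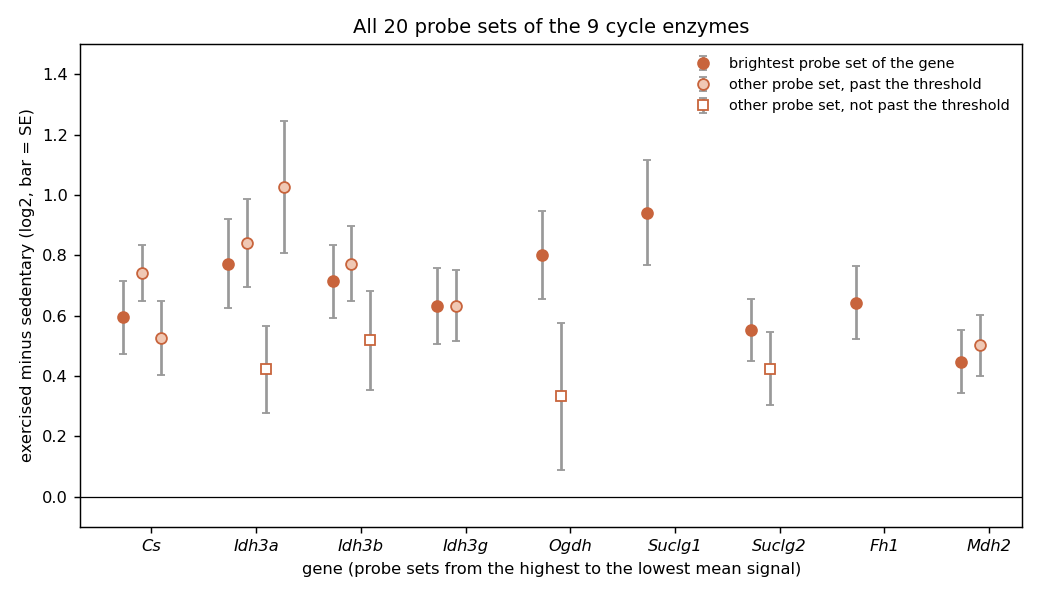
Difference between exercised and sedentary tissue (log2, bars are SE, vertical axis) for all 20 probe sets of the 9 genes, ordered within each gene from the highest to the lowest mean signal; filled points are the probe sets used, pale points others past the threshold, and open squares others that were not. All 20 points lie above 0, from 0.33 to 1.03.

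Across arrays the members moved together. After group means were removed, the correlation of each gene with the mean of the other 8 over 14 arrays ran from 0.79 for Suclg2 and 0.81 for Ogdh to 0.96 for Idh3g and Suclg1; the arrays share normalisation and tissue composition, so these are descriptions. Sedentary array 5 was lowest in its group for 9 of 9 genes. Exercised array 2 was lowest in its group for 7 of 9, with array 6 lowest for Suclg2 and array 4 for Mdh2. The highest exercised array was array 5 for 5 genes and array 7 for 4. Outside the listed metabolic genes, the 5 genes whose log2 values correlated best with the mean of the 9 over 14 arrays were Etfdh, which passes electrons from fatty acid oxidation to ubiquinone (0.99), the complex III subunits Uqcrc2 (0.99) and Uqcrh (0.98), Clstn3, a calsyntenin (0.98), and the ATP synthase subunit Atp5a1 (0.98). With group means removed their correlations were 0.95 to 0.96.

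Among the exercised arrays, though less so among the sedentary ones, the levels of brown and beige fat markers were ordered as the cycle enzymes were. Of 10 such markers listed, 9 were tested, and 5 rose and 0 fell by limma. Their mean log2 level was 8.86 to 11.71 on sedentary and 11.70 to 13.01 on exercised arrays, where that of the 9 cycle enzymes was 13.32 to 14.04 and 14.11 to 14.74. Among the exercised arrays, array 2 had the lowest mean of both, and arrays 5 and 7 the highest of both. Among the sedentary arrays, array 1 had the highest mean of both, but array 7 had the lowest brown and beige mean (8.86) and a middling cycle mean (13.79), and array 5 had the lowest cycle mean (13.32). With the brown and beige mean as a covariate, 0 of the 9 cycle genes and 0 of all 12945 genes passed by limma, against 0 and 1146 at an unadjusted p under 0.05, and the 9 differences were 0.25 to 0.35. This marker mean almost separates the groups, so its level and the group largely cannot be told apart.

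Markers of skeletal muscle also stood higher on most exercised arrays. All 25 tested of 27 listed had positive differences (median 2.57) and 0 passed by limma. Their mean log2 level was 8.33 to 12.61 on sedentary and 8.56 to 14.60 on exercised arrays. Ckm, muscle creatine kinase, averaged 5650 in sedentary and 31713 in exercised samples, and Myh7 and Tnnt1 were under the filter on low signal. Muscle levels were as low as 8.76 on exercised array 1 and 8.56 on exercised array 4, where the cycle enzymes averaged 14.64 and 14.36, above the highest sedentary value of 14.04. Sedentary array 3 had the highest muscle level of its group, 12.61, and a cycle level of 13.86. With the muscle mean as a covariate 7 of 9 cycle genes rose by limma, with all 9 differences between 0.43 and 0.96; Cs (0.58, adjusted p = 0.0648) and Mdh2 (0.43, adjusted p = 0.113) missed the threshold.

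**Figure D5:**
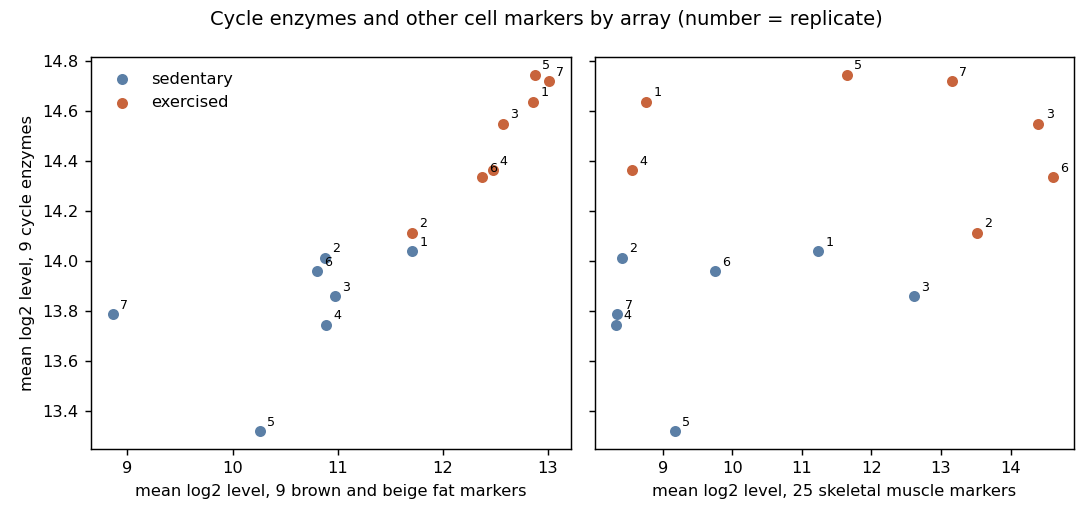
Mean log2 level of the 9 cycle enzymes (vertical axis) against that of 9 brown and beige fat markers (left) and 25 skeletal muscle markers (right) on each array; numbers are replicate numbers. Cycle levels of exercised arrays rise with the brown and beige markers, and the exercised arrays 1 and 4, low in muscle markers, have cycle levels of 14.64 and 14.36, above all sedentary arrays.

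Markers of other cell types had small or negative differences. Macrophage markers had a median difference of -0.29 (12 of 12 negative, 1 called lower) and lymphocyte markers of -0.62 (10 of 10 tested negative, 0 called), endothelial markers of -0.01 (8 tested, 0 called), progenitor markers of -0.06 (5 tested, 0 called) and epithelial markers of -0.36 (5 tested, 1 called lower). The log2 ratio of the end probe sets of the Gapdh control was -0.45 ± 0.07 on sedentary arrays and -0.40 ± 0.06 on exercised arrays (SD, n = 7 each). With that ratio, a sign of RNA integrity, as a covariate 8 of the 9 cycle genes rose by limma, and Mdh2 differed by 0.40 (adjusted p = 0.0819).

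Genes around the cycle were read from 3 further lists, of pyruvate entry, of cytosolic counterparts with carriers, and of supply. Of 11 tested genes of pyruvate entry, 8 rose and 1, Pdk3, fell. Pdk4, a kinase that switches pyruvate dehydrogenase off, rose by 1.99 (SE 0.28, limma adjusted p = 0.00171), Dlat, the acetyltransferase of that complex, by 0.99 (SE 0.15, limma adjusted p = 0.00263), and Pdhx, its binding protein, by 0.80 (SE 0.14, limma adjusted p = 0.00433). The median over these 11 genes was 0.59.

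Of 9 tested genes of cytosolic counterparts and of carriers, 6 rose and 0 fell, with a median of 0.38. The oxoglutarate carrier Slc25a11 rose by 0.38 (SE 0.07, limma adjusted p = 0.0059), the citrate carrier Slc25a1 by 0.69 (SE 0.14, limma adjusted p = 0.01), and Mdh1, the cytosolic malate dehydrogenase, by 0.25 (SE 0.07, limma adjusted p = 0.0382), where its matrix counterpart Mdh2 rose by 0.45. Of 12 tested genes that supply or withdraw intermediates, 2 rose and 1 fell, with a median of 0.35. Me3, a mitochondrial malic enzyme, rose by 0.70 (SE 0.17, limma adjusted p = 0.0272), Pck1, the cytosolic phosphoenolpyruvate carboxykinase, rose by 0.62 (SE 0.17, limma adjusted p = 0.0449), and Pck2, its mitochondrial counterpart, fell by 0.41 (SE 0.10, limma adjusted p = 0.027). Of 74 tested subunits of respiratory complexes I, III, IV and V, chosen by a symbol pattern, 56 rose and 0 fell, with a median of 0.43.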

How the data were processed

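Frozen subcutaneous fat gave total RNA, which was labelled with biotin as cRNA and hybridised to Affymetrix arrays (per the labels' protocols). The authors deposited signal intensity on a linear scale; the submitters' processing notes name MAS5, of which no version or setting is stated there. Samples were grouped by their titles, 7 a group.

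For testing, 46.7, the 10th percentile of all values, was added to each signal before taking log2, so a fold on this scale is smaller than the true change of a dim gene. Probe sets with a mean under 389.7, the 40th percentile, and 64 control probe sets were left out. Before that filter, 34945 of the 45101 probe sets had 1 symbol, and those with several or none were not tested. Symbols were updated by Entrez identifier with a GRCm38.p6 gene table. The test was limma's (version 3.58.1, R 4.3.3; lmFit, eBayes with a trend, two-sided, Benjamini-Hochberg over 12945 genes, threshold 0.05). Intervals of subunit shifts invert the exact permutation test at 95%. The test was tried on simulated data of 12945 genes, each drawn independently, with 100 changed by 0.5 and 100 by 1 on the log2 scale. Of these, 55% of genes changed by 0.5 and 85% of those changed by 1 were called, and 7.89% of all calls were false. Genes on the real arrays vary together, so these rates may not hold for them.

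Named were all members, the other cycle enzymes, up to 3 called genes with the smallest p of each other list, and the 5 genes most like the members. Members and lists were chosen with earlier results of these data known, so no p is given for the list or for its mean. No array was dropped or duplicated, and the number of arrays limits precision. Alternatives covered scaling, pseudocount, filter, probe sets, variance model, covariates, the replicate number as a block, an exact test and leaving out arrays.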

Additional observations from a re-analysis of the deposited data

Results flagged for a closer look

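In 6 of 34 sets of 7 arrays (17 cycle genes in 2 groups) 1 array lay far from the other 6. Far means that its gap to the nearest array, over the range of the set, passed Dixon's 5% limit. The sets share arrays and their genes vary together, so the 6 are not separate counts and cannot be set against 5%. Each time the array was sedentary array 5, the lowest. Its log2 values were 13.71 for Cs (next lowest 14.24), 13.59 for Idh3a (14.21), 13.40 for Idh3b (13.89), 13.42 for Idh3g (14.01), 12.41 for Dld (12.98) and 13.81 for Sdhb (14.21). On the same array the mean of the adipocyte markers was the lowest of the 14 arrays (13.57) and that of the macrophage markers the highest (13.75); their part in the low values was not tested.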

How the results depend on the processing

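All 9 differences stayed positive in each of the 30 alternatives. With another filter, all probe sets tested, no variance trend, the replicate block or the exact test, the difference itself could not change. Replicate numbers are shared between the groups, and the sample titles do not say whether they pair the arrays. Correlations of same-numbered arrays after removing group means ran from -0.43 to 0.38, with 3 of them over 0.1. They were not compared with those of differently numbered arrays, so they do not settle whether arrays are paired. With the replicate block 2 of 9 members passed, and 161 genes in all; Cs (0.59), Idh3a (0.77), Idh3g (0.63), Suclg1 (0.94), Suclg2 (0.55), Fh1 (0.64) and Mdh2 (0.45) kept their differences by construction with adjusted p-values of 0.0576 to 0.0868. With brown and beige markers as a covariate, an alternative chosen after seeing the data, 0 members and 0 genes passed by limma (1146 genes at an unadjusted p under 0.05); the differences were 0.28 for Cs, 0.30 for Idh3a, 0.32 for Idh3b, 0.25 for Idh3g, 0.30 for Ogdh, 0.35 for Suclg1, 0.35 for Suclg2, 0.26 for Fh1 and 0.33 for Mdh2. With muscle markers as a covariate Cs (0.58) and Mdh2 (0.43) were lost and 226 genes passed; with the Gapdh ratio Mdh2 (0.40) was lost and 398 genes passed. With the mean of all probe sets Ogdh (0.57) was lost, and Idh3a minus Idh3g (0.13) too. Leaving out 1 array at a time left 8 to 9 members and 402 to 853 genes called, and Mdh2 at 0.38 to 0.50; Idh3a minus Idh3g ran from 0.12 to 0.16, Suclg1 minus Suclg2 from 0.30 to 0.47, Suclg2 minus Sucla2 from -0.38 to -0.29 and Idh3b minus Idh3g from 0.0648 to 0.0982. Without sedentary arrays 5 and 7 Idh3a minus Idh3g was 0.0876, Suclg1 minus Suclg2 0.28 and Suclg2 minus Sucla2 -0.25, none of them called any longer. Idh3b minus Idh3g passed with quantile normalisation (0.0868) and without sedentary array 1 or 5 or exercised array 2, 4 or 5 (0.0897 to 0.0982). The cause of these losses was not tested.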
